A study of Mus musculus with 10 samples.

Results

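The mitochondrial chromosome of the mouse carries 37 genes, and all 37 were found in the deposited counts by their Ensembl identifiers among 53700 gene identifiers. They comprise 2 ribosomal RNA genes, 22 transfer RNA genes and 13 protein-coding genes. Membership used position alone and no measured value. The counts came from bulk 3′ RNA-seq of cortex from 10 female mice at 4 months of age. The 5 mice labelled 5XFAD;Neu cKO carried the 5XFAD transgenes, a model of amyloid deposition, together with floxed Idol (Mylip) and Camk2a-Cre, which recombines in forebrain neurons. The 5 mice labelled 5XFAD were transgenic littermates. Labels of both groups name Idol and Camk2a-cre, and end in WT for 5XFAD and in cKO for 5XFAD;Neu cKO. Whether the 5XFAD mice carried floxed Idol or Cre is not stated in the labels. Cre acted in neurons, whereas the cortex also contained glia, vessels and blood, and in such bulk samples fewer cells of a type and less RNA per cell cannot be told apart. All fold changes set 5XFAD;Neu cKO over 5XFAD, with n = 5 libraries in each group.

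The mitochondrial chromosome is transcribed from both strands into long precursors that span many genes. Transfer RNAs lie between most of the other genes, and their excision by endonucleases releases the ribosomal and messenger RNAs. One strand encodes both ribosomal RNAs, most transfer RNAs and all messenger RNAs except that of mt-Nd6, and the other encodes mt-Nd6 and the remaining transfer RNAs. The proteins are subunits of respiratory chain complexes and ATP synthase, which neurons depend on for ATP. Copies of mitochondrial DNA have also been inserted into nuclear chromosomes during evolution, and a read that fits both places cannot be assigned.

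Reads counted on genes numbered 4320504 to 7466192 per library. A further 31.3% to 39.9% of uniquely placed reads lay on no gene, and 2.76 to 3.98 alignments per counted read had been set aside because the read aligned in several places. These set-aside alignments ranged from 3.10 to 3.98 per counted read in 5XFAD and from 2.76 to 3.34 in 5XFAD;Neu cKO. Mylip, the gene targeted by the knockout, was at 9.32 to 14.7 CPM (normalised counts scaled to library size) in 5XFAD and 7.18 to 19.4 CPM in 5XFAD;Neu cKO (adjusted p = 0.777, edgeR). Where the deleted part lies relative to these 3′ reads is not given in the sources used here, so this gene does not check the labels. Summed neuronal, oligodendrocyte and endothelial markers overlapped between groups. The 6 microglial markers summed to 219 to 328 CPM in 5XFAD and 164 to 189 CPM in 5XFAD;Neu cKO, and 3 of them passed the test, all lower. The 5 red cell markers summed to 6.34 to 51.4 CPM and 46.9 to 211 CPM. Of these, 2 passed as higher and none had a negative log2 fold change. Of 5 astrocyte markers 1 passed as lower and 4 were negative, and of 3 hypothalamus markers 1 passed as lower and 3 were negative. The 3 choroid plexus markers summed to 25.5 to 68.9 CPM in 5XFAD and 11.6 to 138 CPM in 5XFAD;Neu cKO, and 0 passed. None of the markers was at 0 in all libraries, and their part in the results below was not tested.

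The members differed first in whether a read could be assigned to them at all. In GRCm39, a stretch of chromosome 1 (chr1:24650616-24655269, minus strand) holds bases 6390 to 11042 of the mitochondrial chromosome with 99.9% identity, from within mt-Co1 to within mt-Nd4. It differs at 3 places: A6393T lies in mt-Co1, T9461C in mt-Nd3, and 1 additional A in a run of A lies in mt-Tr. Positions count along the mitochondrial chromosome, with its base first and that of the copy second. A second copy on chromosome 2 (chr2:22477300-22480546) matched bases 4441 to 7699 at 97.4%, and a further one on chromosome 13 (chr13:85274681-85275634) matched bases 12446 to 13400 at 95.2%.

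The differences in mt-Nd3 and mt-Tr are printed here in the mitochondrial and the copied sequence. Both are read along the plus strand of the mitochondrial chromosome, with the differing base or the run of A in capitals. The first stretch covers the end of mt-Tg and the start of mt-Nd3 (chrM:9431-9491), and the second covers the start of mt-Tr (chrM:9791-9850).
mt-Nd3, mitochondrial: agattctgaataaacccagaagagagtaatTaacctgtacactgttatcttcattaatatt
mt-Nd3, chromosome 1 copy (chr1:24652168-24652228): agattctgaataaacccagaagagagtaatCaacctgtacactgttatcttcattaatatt
mt-Tr, mitochondrial: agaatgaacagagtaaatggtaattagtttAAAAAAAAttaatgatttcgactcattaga
mt-Tr, chromosome 1 copy (chr1:24651808-24651868): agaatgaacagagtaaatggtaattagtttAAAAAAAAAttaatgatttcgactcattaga
T9461C is base 3 of the first codon of mt-Nd3, which is ATT in the reference and ATC in the copy. Within a reading frame both triplets stand for isoleucine in the vertebrate mitochondrial code, but how they are read as a first codon was not examined. The run holds 8 A in mt-Tr and 9 A in the copy.

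Across the 37 genes, the genes with complete nuclear copies held few or no reads. Windows of 75 bases, the read length, were placed along each gene and searched for in the nuclear chromosomes. Every window of mt-Co2, mt-Atp8, mt-Atp6, mt-Co3 and mt-Nd4l, which encode subunits of cytochrome oxidase, ATP synthase and complex I, was also nuclear. These genes held 0, 9, 15, 0 and 0 reads in all 10 libraries together. The transfer RNA genes mt-Ts1, mt-Td and mt-Tk, with all windows nuclear, were also at 0 in every library. So were mt-Tg, mt-Tn and mt-Th, with 48.5%, 78.9% and 82.1% of their windows nuclear. A count of 0 allows up to 0.394 to 0.704 CPM per library (3 counts, counting error only), so for these 9 genes RNA was not detectable with uniquely placed reads, which is not to say that it was absent. In contrast, mt-Nd4 held 706887 reads although 60.9% of its windows were nuclear, and mt-Co1 held 171470 reads with 41.4% nuclear. Of the genes copied on chromosome 1, Gm28438, the copy of mt-Nd3, held 3724 reads and the other counted ones at most 20 each. Neighbouring genes set a further limit. A 75-base read on mt-Tg, mt-Th or mt-Tk always touched another member on the same strand. The same was true of others such as mt-Tf and mt-Tv, which held 3199 and 14209 reads. Which limit accounts for the zeros was not tested.

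**Figure D1:**
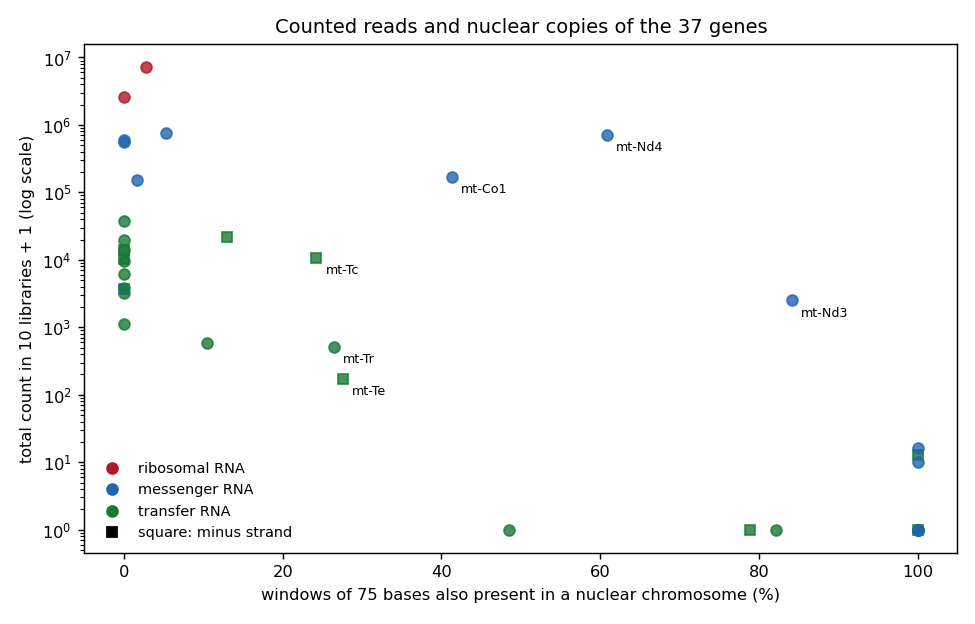
Total count over 10 libraries plus 1 (log axis) against the percentage of 75-base windows also present in a nuclear chromosome, one point per mitochondrial gene, coloured by class, with squares for the minus strand. Genes with 100% nuclear windows hold at most 15 reads, while mt-Nd4 and mt-Co1 hold 706887 and 171470 reads at 60.9% and 41.4%.

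After removal of genes with 10 or fewer reads in total, 27 of the 37 members remained among 19268 genes tested: both ribosomal RNA genes, 16 transfer RNA genes and 9 messenger RNA genes. mt-Nd3, mt-Tr, mt-Ty and mt-Atp6 entered with few reads in most libraries of at least one group. With edgeR's quasi-likelihood test and Benjamini-Hochberg adjustment over all genes tested, 8 members passed an adjusted p of 0.05, 7 lower and 1 higher. Over all genes 42 passed (0.218%), of which 31 were lower (0.161%) and 11 higher (0.0571%). The lower members were mt-Rnr1, mt-Rnr2 and 5 transfer RNA genes, and the higher one was mt-Nd3. The median log2 fold change was -0.24 over the 27 members and -0.00056 over all genes tested. In 5 members, mt-Tl1, mt-Tq, mt-Tc, mt-Tt and mt-Tl2, every library labelled 5XFAD;Neu cKO was below every 5XFAD library, a pattern found in 139 of all genes (0.721%). No member showed the opposite, found in 111 of all genes (0.576%).

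**Figure D2:**
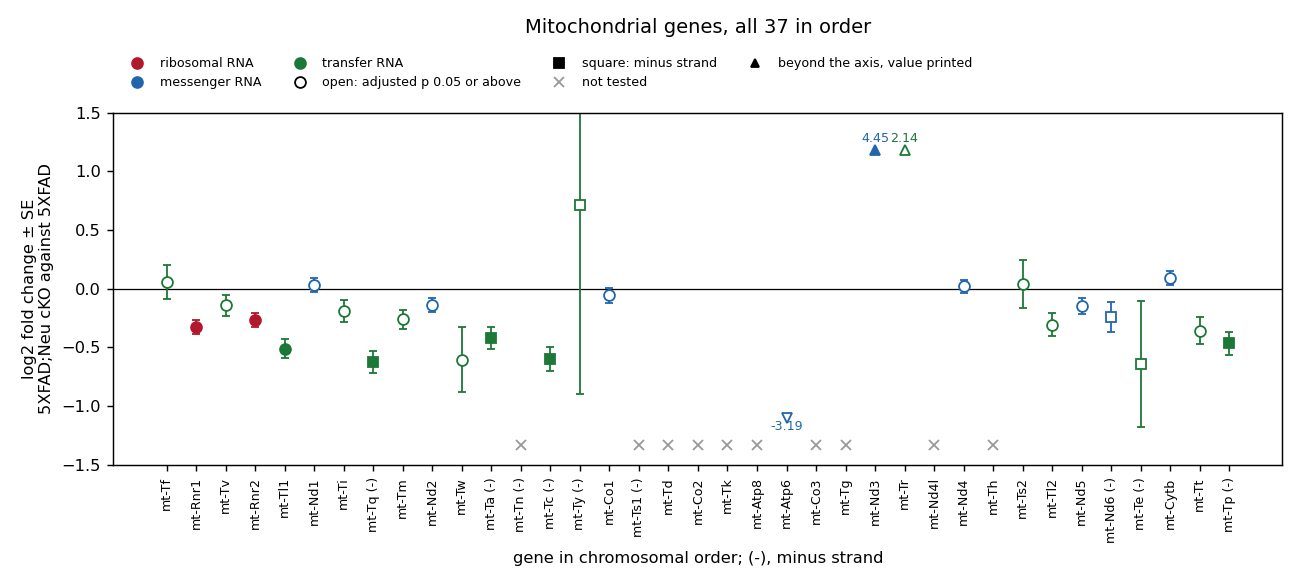
Log2 fold change of 5XFAD;Neu cKO against 5XFAD with its standard error for the 37 mitochondrial genes in chromosomal order, filled where the adjusted p is under 0.05, squares on the minus strand, crosses where too few reads were present to test. The filled points below 0 are both ribosomal RNA genes and 5 transfer RNA genes, while the well-counted messenger RNA genes lie within 0.25 of 0. mt-Nd3, mt-Tr and mt-Atp6 lie beyond the axis and carry their values.

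The ribosomal RNAs of the small and large mitochondrial ribosomal subunits took most of the mitochondrial reads. mt-Rnr1, the 12S ribosomal RNA gene (chrM:70-1024, plus strand, ENSMUSG00000064337), was at 51133, 57483, 49552, 52725 and 45000 CPM in 5XFAD replicates 1 to 5 and at 50394, 36714, 38237, 40570 and 37948 CPM in 5XFAD;Neu cKO. All 5XFAD;Neu cKO libraries but replicate 1 lay below the 5XFAD range. Its log2 fold change was -0.33 ± 0.06 (SE), a decrease from 51178 ± 4554 to 40772 ± 5556 CPM (SD), with an adjusted p of 6.21e-04 by edgeR. The call held with any 1 library left out, with an adjusted p of at most 0.0124, and was lost in edgeR's robust fit (adjusted p = 0.299).

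mt-Rnr2, the 16S ribosomal RNA gene (chrM:1094-2675, plus strand, ENSMUSG00000064339), was at 140584, 156751, 132738, 147568 and 110980 CPM in 5XFAD and at 145654, 101239, 102642, 116292 and 106481 CPM in 5XFAD;Neu cKO. The groups overlapped, with 5XFAD;Neu cKO replicate 1 among the 5XFAD values and 5XFAD replicate 5 among those of the other group. Its log2 fold change was -0.27 ± 0.06 (SE, edgeR adjusted p = 0.0361), and this call rested on few choices. It was lost without 5XFAD replicate 1 (0.0971), 2 (0.156) or 4 (0.138), and without 5XFAD;Neu cKO replicate 2 (0.200), 3 (0.236), 4 (0.0893) or 5 (0.218). It was also lost with DESeq2 (adjusted p = 0.410) and in the robust fit (0.682).

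The clearest decreases among the members were in reads counted on transfer RNA genes. The libraries were primed with oligo(dT), and whether these reads came from mature transfer RNAs or from longer precursors was not tested. For the 5 that passed the test, the sense sequence is printed with the anticodon in capitals, because these short genes lie between longer transcripts and the counted reads can be judged against their length.
mt-Tl1 (chrM:2676-2750, plus strand): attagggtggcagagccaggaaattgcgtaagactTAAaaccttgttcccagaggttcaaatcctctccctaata
mt-Tq (chrM:3772-3842, minus strand): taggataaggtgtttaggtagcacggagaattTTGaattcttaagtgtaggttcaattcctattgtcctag
mt-Ta (chrM:5018-5086, minus strand): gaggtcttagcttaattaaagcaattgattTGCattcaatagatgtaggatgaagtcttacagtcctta
mt-Tc (chrM:5192-5257, minus strand): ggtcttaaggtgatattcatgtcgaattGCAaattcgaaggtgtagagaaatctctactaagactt
mt-Tp (chrM:15356-15422, minus strand): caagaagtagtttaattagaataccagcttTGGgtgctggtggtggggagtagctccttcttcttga
The genes are 75, 71, 69, 66 and 67 bases long. A read of 75 bases on the gene's own strand that touched mt-Tl1 and no other member had 1 possible placement, against 145 for mt-Tq, 71 for mt-Ta, 26 for mt-Tc and 141 for mt-Tp. Of the 26 for mt-Tc and the 71 for mt-Ta, 26 and 64 had no nuclear copy.

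mt-Tl1 carries leucine to UUR codons and follows mt-Rnr2 without an intervening base. It was at 447, 437, 362, 418 and 419 CPM in 5XFAD and at 344, 302, 263, 279 and 272 CPM in 5XFAD;Neu cKO. The groups did not overlap. Its log2 fold change was -0.51 ± 0.08 (SE, edgeR adjusted p = 2.33e-04), and the fitted value fell by 29.9%. It stayed past the threshold with any 1 library left out.

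mt-Tq, the glutamine transfer RNA gene, lies opposite the end of mt-Ti on the minus strand. It was at 286, 364, 267, 295 and 296 CPM in 5XFAD and at 238, 217, 156, 188 and 182 CPM in 5XFAD;Neu cKO, again without overlap. Its log2 fold change of -0.62 ± 0.09 (SE, edgeR adjusted p = 7.36e-05) had the smallest p of the decreases and held with any 1 library left out (adjusted p at most 0.00125).

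mt-Tc, for cysteine, and mt-Ta, for alanine, belong to the cluster of transfer RNA genes between mt-Nd2 and mt-Co1. mt-Tc was at 225, 252, 201, 229 and 257 CPM in 5XFAD and at 200, 165, 113, 145 and 147 CPM in 5XFAD;Neu cKO. These values touched but did not overlap, since the highest 5XFAD;Neu cKO library was at 199.8 CPM and the lowest 5XFAD library at 201.0 CPM. The log2 fold change of mt-Tc was -0.60 ± 0.10 (SE, edgeR adjusted p = 4.07e-04), and it held with any 1 library left out.

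mt-Ta was at 374, 517, 402, 420 and 467 CPM in 5XFAD and at 424, 316, 267, 310 and 312 CPM in 5XFAD;Neu cKO, where replicate 1 lay within the 5XFAD range. Its log2 fold change was -0.42 ± 0.09 (SE, edgeR adjusted p = 0.0178). The call was lost without 5XFAD replicate 2 (0.114) or 5 (0.0517) and without 5XFAD;Neu cKO replicate 2 (0.0518), 3 (0.164), 4 (0.0800) or 5 (0.0890).

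mt-Tp, for proline, is the last gene before the control region. It was at 184, 232, 195, 224 and 224 CPM in 5XFAD and at 190, 124, 144, 139 and 168 CPM in 5XFAD;Neu cKO, with only replicate 1 of the latter inside the 5XFAD range. Its log2 fold change was -0.47 ± 0.10 (SE, edgeR adjusted p = 0.00954), and the call was lost without 5XFAD;Neu cKO replicate 2 (0.0653), 3 (0.0610) or 4 (0.0708).

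**Figure D3:**
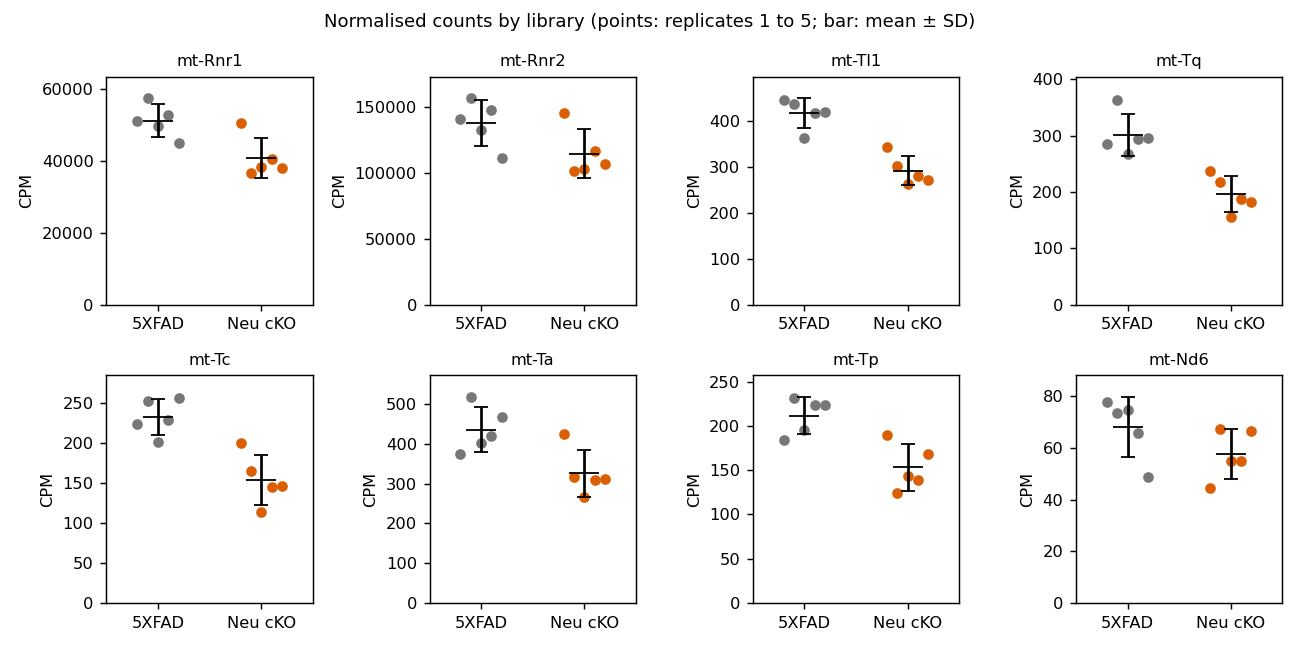
Normalised counts (CPM, linear axis from 0) of the 7 lower members and of mt-Nd6 by library, points for replicates 1 to 5 and bars for mean ± SD in 5XFAD (grey) and 5XFAD;Neu cKO (orange). mt-Tl1, mt-Tq and mt-Tc do not overlap between groups, and 5XFAD;Neu cKO replicate 1 is the highest of its group except in mt-Nd6.

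Transfer RNA genes past the threshold were unevenly placed between the strands. Of the 8 minus-strand transfer RNA genes, 4 passed (mt-Tq, mt-Ta, mt-Tc and mt-Tp), 2 were tested with few reads (mt-Te with 170 and mt-Ty with 12 in all) and 2 were at 0. Of the 14 plus-strand ones, 1 passed (mt-Tl1), 9 were tested without passing and 4 were at 0. The median log2 fold change was -0.53 over the 6 tested on the minus strand and -0.23 over the 10 tested on the plus strand. An unadjusted edgeR p under 0.05 was less uneven, with 4 of these 6 and 7 of these 10, against 7.95% of all genes tested. The 7 include mt-Tr, which was higher. mt-Tm, for methionine and the most counted plus-strand transfer RNA gene, was at 647 to 805 CPM in 5XFAD and 542 to 743 CPM in 5XFAD;Neu cKO (log2 fold change -0.26 ± 0.08 SE, edgeR adjusted p = 0.247, and 0.0176 without 5XFAD;Neu cKO replicate 1). mt-Tv, for valine and lying between the ribosomal RNA genes, was at -0.14 ± 0.09 (adjusted p = 0.775). The plus-strand genes mt-Tf, mt-Ti, mt-Tw and mt-Ts2, for phenylalanine, isoleucine, tryptophan and serine, had log2 fold changes of 0.06 ± 0.14, -0.19 ± 0.09, -0.61 ± 0.28 and 0.04 ± 0.20 (SE), with edgeR adjusted p-values of 0.975, 0.617, 0.554 and 0.990. mt-Tl2, for leucine, and mt-Tt, for threonine, did not overlap between groups, yet their log2 fold changes of -0.31 ± 0.10 and -0.36 ± 0.12 had adjusted p-values of 0.330 and 0.299. A difference between the strands was not tested. Without TMM factors, which centre the libraries on one another, mt-Rnr2 (0.0708), mt-Ta (0.0716) and mt-Tp (0.0622) no longer passed, and with edgeR's stricter filterByExpr mt-Rnr2 (0.226) and mt-Ta (0.0553) did not. The strand setting of the counting is not given in the sources used here, so reads of the opposite strand within a minus-strand gene cannot be told apart from its own.

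The messenger RNA genes moved less. mt-Nd2, a complex I subunit and the most counted of them, was at 12788 to 16130 CPM in 5XFAD and 10899 to 14417 CPM in 5XFAD;Neu cKO (log2 fold change -0.14 ± 0.06 SE, edgeR adjusted p = 0.515). The complex I genes mt-Nd1 and mt-Nd4 had log2 fold changes of 0.03 ± 0.06 and 0.02 ± 0.06, with 95% intervals (1.96 SE on each side) of -0.09 to 0.15 and -0.09 to 0.13. Cytochrome oxidase mt-Co1, at -0.06 ± 0.06, and cytochrome b mt-Cytb, at 0.09 ± 0.06, had intervals of -0.18 to 0.07 and -0.02 to 0.20, and mt-Nd5 was at -0.15 ± 0.07 (-0.28 to -0.02). None of these 6 passed, with edgeR adjusted p-values from 0.515 to 0.982. These intervals leave out a decrease as large as the fitted one of mt-Rnr1 for every one of the 6, in the fit over all 10 libraries. The interval of mt-Nd5 does include the smaller fitted decrease of mt-Rnr2, at -0.27. A difference between messenger and ribosomal RNA genes was not tested. Among the 5 libraries whose reads lay on mt-Nd3 rather than on its copy (described with mt-Nd3), 1 library labelled 5XFAD was set against 4, and mt-Nd2 was at -0.38. That value rests on 5XFAD replicate 2, where mt-Nd2 was at 16130 CPM against 12788 to 13454 CPM in the other 5XFAD libraries.

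mt-Nd6, the only messenger RNA gene on the minus strand, was at 77.9, 73.7, 74.6, 65.6 and 48.9 CPM in 5XFAD and 44.5, 67.5, 54.9, 55.0 and 66.7 CPM in 5XFAD;Neu cKO. The groups overlapped, and the log2 fold change was -0.24 ± 0.13 (SE, edgeR adjusted p = 0.671). It shares its strand with the 4 lower minus-strand transfer RNA genes, and its interval of -0.49 to 0.01 includes the values fitted for mt-Ta and mt-Tp but not those for mt-Tq and mt-Tc.

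Summed by class, the share of all counted reads that fell on the mitochondrial chromosome was 23.5% ± 1.66 (SD) in 5XFAD and 21.4% ± 1.86 in 5XFAD;Neu cKO, from 20.9% to 25.1% and from 20.2% to 24.7%. Ribosomal RNA accounted for the lower share. It took 18.2%, 19.5%, 18.0%, 19.6% and 16.1% of counted reads in 5XFAD and 19.0%, 14.6%, 14.8%, 16.0% and 15.3% in 5XFAD;Neu cKO, while plus-strand messenger RNA took 4.49% to 5.20% and 4.85% to 5.45%. Transfer RNA took 0.284% to 0.308% of counted reads in 5XFAD and 0.220% to 0.278% in 5XFAD;Neu cKO, and these ranges did not overlap. As a share of mitochondrial reads the ranges of transfer RNA overlapped, at 1.15% to 1.45% and 1.07% to 1.24%, as did minus-strand transfer RNA as a share of counted reads, at 0.102% to 0.128% and 0.0717% to 0.102%.

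Set against plus-strand messenger RNA of the same library, which removes differences in the total mitochondrial share, minus-strand transfer RNA genes held 20.3, 25.2, 20.9, 22.1 and 28.6 reads per 1000 in 5XFAD. They held 19.2, 16.2, 13.2, 16.5 and 17.3 per 1000 in 5XFAD;Neu cKO, all below the 5XFAD values. Plus-strand transfer RNA genes held 32.3 to 39.0 per 1000 in 5XFAD and 27.2 to 32.9 in 5XFAD;Neu cKO, and ribosomal RNA 3569 to 3941 and 2717 to 3578, with 5XFAD;Neu cKO replicate 1 the highest of its group in all 3. The mean fell to 0.703 of the 5XFAD mean for minus-strand transfer RNA, 0.835 for plus-strand transfer RNA and 0.831 for ribosomal RNA. With library sizes set to these messenger RNA reads, an alternative chosen after seeing the data, mt-Rnr1, mt-Rnr2, mt-Tl1, mt-Tq and mt-Tc still passed, and mt-Ta (edgeR adjusted p = 0.0587) and mt-Tp (0.0523) did not.

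**Figure D4:**
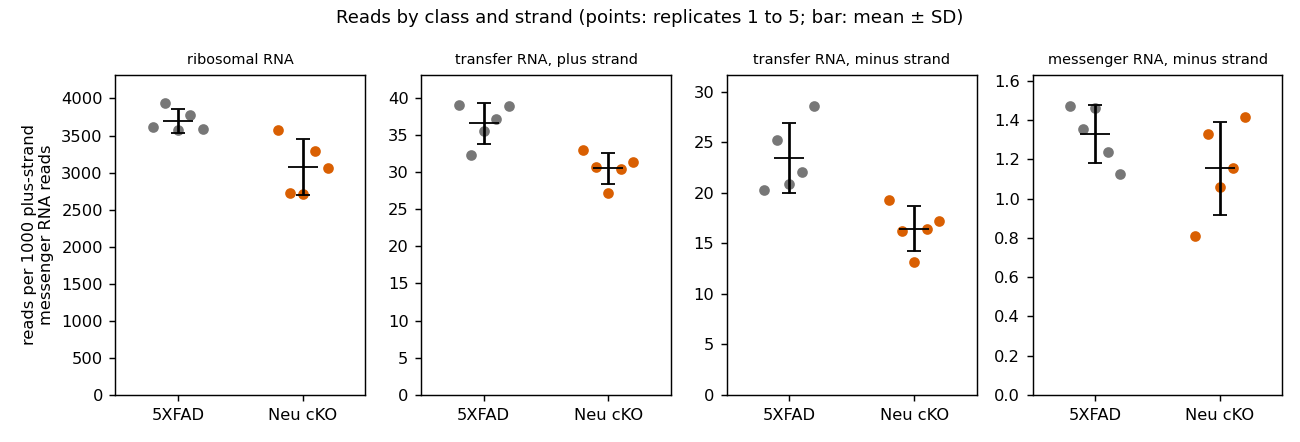
Reads on ribosomal RNA genes, plus-strand and minus-strand transfer RNA genes and mt-Nd6 per 1000 reads on plus-strand messenger RNA genes of the same library (linear axes from 0), points for replicates 1 to 5 and bars for mean ± SD. Minus-strand transfer RNA lies at 20.3 to 28.6 in 5XFAD and 13.2 to 19.2 in 5XFAD;Neu cKO, without overlap.

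mt-Nd3, a complex I subunit gene (chrM:9459-9806, plus strand), was the only member that passed with a higher value. It held 9, 59, 12, 6 and 1 reads in 5XFAD and 506, 25, 760, 499 and 630 reads in 5XFAD;Neu cKO. Replicate 2 of each group stood apart from its own group. The log2 fold change was 4.45 ± 0.43 (SE, edgeR adjusted p = 2.59e-10), and in the robust fit the adjusted p was 0.241. Its copy Gm28438 held 870, 8, 882, 836 and 79 reads in 5XFAD and 6, 1021, 4, 3 and 15 in 5XFAD;Neu cKO, the mirror image. Of 275 placements of a 75-base read on mt-Nd3 alone, 3 had no nuclear copy; these are the ones that span T9461C.

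Of the reads on the pair, mt-Nd3 took 88.1% to 99.5% in 5 libraries and 0.713% to 2.39% in the other 5. The first set comprised 5XFAD replicate 2 and 5XFAD;Neu cKO replicates 1, 3, 4 and 5, and the second comprised 5XFAD replicates 1, 3, 4 and 5 and 5XFAD;Neu cKO replicate 2. The smallest and largest shares among the second were 0.713% (95% Wilson interval 0.327 to 1.55) and 2.39% (1.62 to 3.50). The base itself was not seen in reads, and the split was read from their assignment alone. This split followed the label in 8 of 10 libraries. When the reads of members and their copies were summed, the log2 fold change of mt-Nd3 was 0.21 with an edgeR adjusted p of 0.939. The sum was 67 reads in 5XFAD replicate 2 and 80 in 5XFAD replicate 5, against 502 to 1046 in the other 8 libraries.

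mt-Tr, for arginine, follows mt-Nd3 and carries the other difference. It held 2, 67, 3, 0 and 2 reads in 5XFAD and 128, 9, 82, 86 and 131 in 5XFAD;Neu cKO. The same 5 libraries were high as for mt-Nd3, at 67 to 131 reads, and the other 5 held 0 to 9. It did not pass the test between the labels (log2 fold change 2.14 ± 0.56 SE, edgeR adjusted p = 0.0994). It passed without 5XFAD replicate 2 (2.15e-09) or 5XFAD;Neu cKO replicate 2 (0.0193), the libraries that stood apart from their groups. It also passed without both of them (9.22e-14), with no filter on low counts (2.33e-07), with the replicate block (2.22e-13) and with library sizes set to messenger RNA reads (0.0352). A 75-base read had no placement on mt-Tr alone, so the counted reads had aligned over fewer bases.

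**Figure D5:**
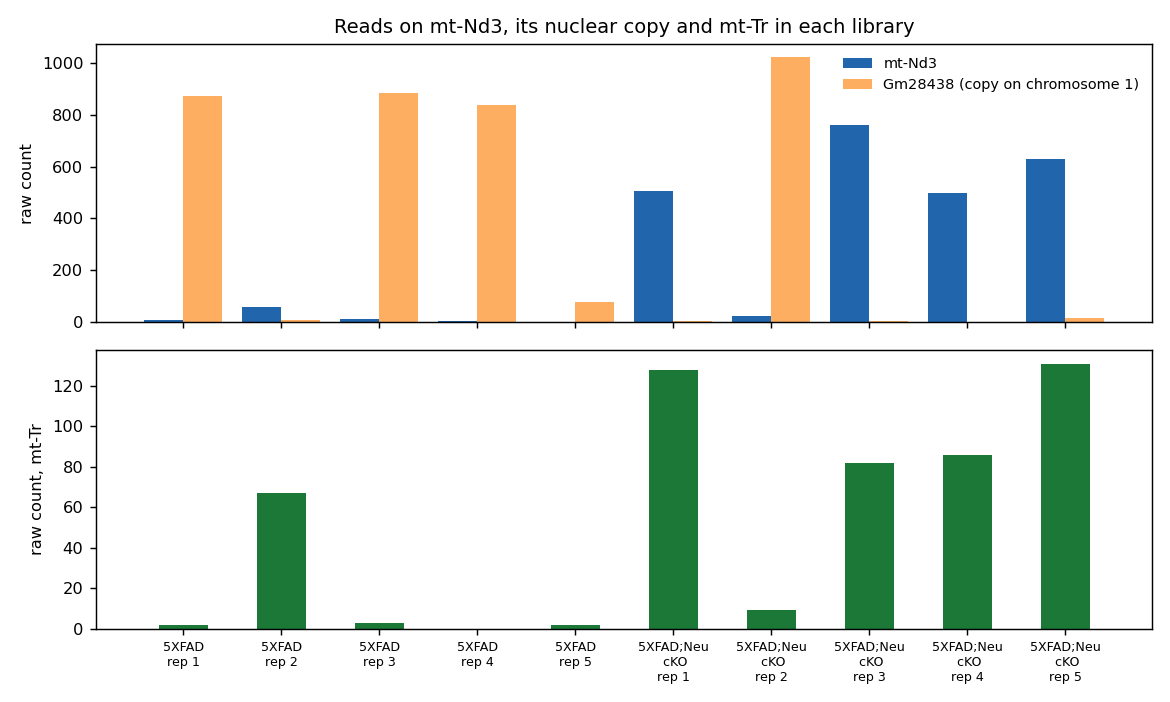
Raw counts of mt-Nd3 and of its chromosome 1 copy Gm28438 (upper panel) and of mt-Tr (lower panel) in each of the 10 libraries, on linear axes from 0. 5XFAD replicate 2 and 5XFAD;Neu cKO replicates 1, 3, 4 and 5 hold their reads on mt-Nd3 and have 67 to 131 reads on mt-Tr, and the other 5 libraries hold theirs on Gm28438.

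Because the split moved with the label, the decreases were also fitted with it as a covariate. The log2 fold changes were then -0.45 for mt-Rnr1, -0.40 for mt-Rnr2, -0.52 for mt-Tl1, -0.67 for mt-Tq, -0.60 for mt-Tc, -0.53 for mt-Ta and -0.63 for mt-Tp, all past the threshold (edgeR adjusted p at most 0.0033). In that fit 8 members passed, 7 lower and 1 higher, and the higher one was mt-Nd3, whose own reads define the split. The label is separated from the split there by both replicates numbered 2 alone. Among the members, the split itself passed in mt-Nd3, whose reads define it, and in mt-Tr. With both replicates 2 left out, label and split cannot be told apart, and mt-Rnr1, mt-Tl1, mt-Tq and mt-Tc stayed past the threshold while mt-Rnr2 (0.437), mt-Ta (0.189) and mt-Tp (0.172) did not.

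Nuclear genes that act on the mitochondrial chromosome and its RNA were read from 3 lists. None of the 16 genes for transcription and replication of mitochondrial DNA passed the test, with a median log2 fold change of 0.20 against -0.00056 over all genes tested. At an unadjusted p under 0.05 there were 0 of these 16, against 1532 of all genes tested (7.95%). The lowest p was that of Mterf4, a ribosome assembly factor, at 7.04 ± 1.72 CPM (SD) in 5XFAD and 10.2 ± 0.423 CPM in 5XFAD;Neu cKO (log2 fold change 0.52 ± 0.29 SE, edgeR adjusted p = 0.689). Its groups did not overlap, the only such case in this list. Every 5XFAD;Neu cKO library was higher, a pattern found in 111 of all genes tested (0.576%). Next came Ssbp1, the single-stranded DNA binding protein of the replication fork, at 0.44 ± 0.27 (adjusted p = 0.765).

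Of 41 genes for processing and modification of mitochondrial RNA, 0 passed with edgeR and 2 had an unadjusted p under 0.05, to be read against the 7.95% of all genes. These were Mrm2, a ribosomal RNA methyltransferase, with a log2 fold change of -1.05 ± 0.49 (SE, adjusted p = 0.587), and Pnpt1, the mitochondrial polynucleotide phosphorylase, with 0.57 ± 0.27 (adjusted p = 0.594). Of 22 genes that charge mitochondrial transfer RNAs, 0 passed with edgeR and 0 had an unadjusted p under 0.05, against the same 7.95%. Fars2, the phenylalanine synthetase, was at -0.48 ± 0.33 (log2 fold change ± SE, edgeR adjusted p = 0.822).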

How the data were processed

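Cortical RNA was sequenced by QuantSeq 3′ FWD, an oligo(dT)-primed single-end assay without molecular identifiers stated. The authors trimmed adapters and poly(A), aligned with STAR 2.7.3a to GRCm39 (Ensembl annotation) and deposited raw counts per gene from htseq-count, which sets aside reads aligned in several places. Whether strand was used is not given. Labels state separate samples, taken here as separate mice.

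Counts as deposited were tested with edgeR 4.0.16 (R 4.3.3; TMM, quasi-likelihood F test, ~group, genes with a total count of 10 or less removed), with Benjamini-Hochberg adjustment over all genes and a threshold of 0.05. DESeq2 1.42.0, other scalings and filters, a robust fit, a replicate block and left-out libraries were alternatives. Summary rows (no gene, ambiguous, several alignments) stayed out of library sizes. The fit was tested on simulated counts, with recovery required only of changed genes with a mean count over 50, a limit set after a first version that included low counts had failed. Nuclear copies were found with BLAST+ 2.17.0 (at least 500 bases and 95% identity) in GRCm39, the build of the counts, with gene positions from GENCODE; sequences were read from that genome. The base of mt-Nd3 was inferred from where reads had been assigned, not seen in reads: it was taken as the reference where over 50% of the reads of mt-Nd3 and Gm28438 lay on mt-Nd3. Wilson intervals and floors of 3 counts cover counting error only. The SE of a log2 fold change was back-calculated as its absolute value divided by the square root of edgeR's F statistic. Intervals of log2 fold changes use this SE. The closest pair of replicates differed by 5.87 times the sampling noise (chi-square per degree of freedom), so all 10 were kept as separate replicates.

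All members were named. Full values per library were given for both ribosomal RNA genes, mt-Nd3 and members past the threshold, and from each nuclear list the genes past it or otherwise the 2 with the smallest p, of which 1 is not reported here. Members and lists were chosen with earlier results of these data known.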

Additional observations from a re-analysis of the deposited data

Results flagged for a closer look

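Within each group of 5 libraries, a value was looked at again when its gap to the nearest other, divided by the group's range, was above 0.71 (Dixon's 95% limit). Of 70 groups tested, 9 were marked, and chance marks about 1 in 20. In 5XFAD;Neu cKO replicate 1, mt-Rnr1 was at 50394 CPM against 36714 to 40570 CPM in the other 4, and the mitochondrial share of counted reads was 24.7% against 20.2% to 21.1%. In 5XFAD replicate 2, mt-Nd3 was at 13.8 CPM against 0.224 to 1.74, mt-Tr at 15.7 CPM against 0 to 0.449, and mt-Nd2 at 16130 CPM against 12788 to 13454. In 5XFAD;Neu cKO replicate 2, mt-Nd3 was at 4.598 CPM against 84.0 to 99.8, and mt-Ty at 1.29 CPM against 0 to 0.144. mt-Nd4 was at 9939 CPM in 5XFAD replicate 5 against 12430 to 12908, and mt-Atp6 at 0.131 CPM in 5XFAD;Neu cKO replicate 3 against 0 in the others.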

How the results depend on the processing

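The number of members past the threshold was 8 and stayed between 6 and 10 in all alternatives except 3 besides those that left out 1 library: 5 without TMM factors, 5 in the robust fit, which lost mt-Nd3 (adjusted p = 0.241), mt-Rnr1 and mt-Rnr2, and 1 among the libraries with the base of the copy, where 1 labelled 5XFAD;Neu cKO was set against 4. There, as in the other subset by base, which has a lone 5XFAD library, every value rests on 1 sample, assumed to vary like the others. Leaving out 1 library gave 5 to 9 members, with 5 without 5XFAD;Neu cKO replicate 3 or 4, and 26 to 72 of all genes, with 26 without 5XFAD replicate 2, 27 without 5XFAD;Neu cKO replicate 4 or 5 and 72 without its replicate 1. Of all genes 42 passed, against 73 with DESeq2, 103 with no filter, 112 with the replicate block and 91 with the base as covariate. Within the libraries with the base of the reference (4 against 1) 242 passed, and within those with the base of the copy 2; both subsets, like the scaling by messenger RNA reads, were chosen after seeing the data. Without TMM factors the median log2 fold change of all genes was 0.09, and 20 genes were lower and 32 higher, against 31 and 11. The difference in mitochondrial share, -2.12 percentage points, was 0.0649 points once mt-Rnr1 and mt-Rnr2 were left out of both sums, and -2.94 to -1.71 with 1 library left out.

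Sign changes occurred in members that had not passed. With 1 library left out, mt-Tf ranged from -0.0533 to 0.19, mt-Nd1 from -0.0363 to 0.0849, mt-Nd4 from -0.0426 to 0.0451 and mt-Ts2 from -0.0673 to 0.16 (log2 fold change). Without both replicates 2, mt-Tf was at -0.14 and mt-Ts2 at -0.0559, and without TMM factors mt-Co1 was at 0.0318. Among libraries with the base of the reference, mt-Ti was at 9.5e-05, mt-Tw at 0.16 and mt-Nd4 at -0.0275, and among those with the base of the copy mt-Ts2 was at -0.12 and mt-Nd6 at 0.0135. mt-Tl1, mt-Tq and mt-Tc were negative throughout and lost their calls only among the 5 libraries with the base of the copy, where they were at -0.44, -0.40 and -0.47 (adjusted p = 0.839, 0.854 and 0.839). The causes were not tested.

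Replicate numbers did not pair the mice: the correlations of same-numbered deviations were -0.05 to 0.02, and 1 of 10 libraries correlated best with its own number. With the replicate block, 10 members passed. Depth limits mt-Te, mt-Ty, mt-Tw, mt-Tr and mt-Atp6, and an alternative that changes nuclear copies cannot recover reads set aside for aligning in several places.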
